A study of Mus musculus with 30 samples.

Results

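Expression of 10 genes for secreted matrix glycoproteins and their partners was followed across dose and time of cannabidiol (CBD) exposure: Thbs1, Thbs2, Tnc, Fbln5, Mgp, Fn1, Sparc, Postn, Lox and Fbn1. Members were chosen by gene symbol, with earlier results of these data known. Each had 1 row among the 56941 Ensembl genes of the count files. The cells were mHypoA-2/12 (Clu177), an immortalized line derived from adult mouse hypothalamus, so all libraries come from 1 clonal line. They received 0.325 µM, 0.75 µM, 1.5 µM or 3 µM CBD dissolved in DMSO, or the DMSO vehicle alone at the same final concentration, for 6 h or for 24 h. This gave 10 groups of 3 libraries of 3′ mRNA-Seq, a protocol that reads 1 fragment from the 3′ end of each transcript. The comparisons ask how CBD dose and exposure time alter expression in hypothalamic cells.

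Matricellular glycoproteins are secreted into the extracellular matrix, where they bind structural fibres, growth factors and cell surface receptors and tune adhesion rather than carry load. Thrombospondins, tenascin C, periostin, osteonectin (the product of Sparc) and matrix Gla protein belong to this class, while fibronectin, fibrillin 1 and fibulin 5 build or bridge fibrils and lysyl oxidase cross-links them. In the brain such proteins are supplied mainly by glia, vascular cells and meningeal fibroblasts, and thrombospondins from astrocytes are known for promoting synapse formation.

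The libraries held 1839621 to 4420675 reads on genes, and all 10 members passed the filter on low counts in every fit, with 155 to 16649 reads per member and library. Levels are given as TMM-scaled CPM, the reads of a gene relative to all reads on genes in that library, with scaling over all 30 libraries, and are compared between groups within a gene only. The line was checked against its labelled cell type. Of 9 neuronal markers, 4 had reads in all 30 libraries, with Tubb3 (median 50.6 CPM) and Map2 (24.9 CPM) the highest. Syt1 had reads in 28 libraries (median 1.87 CPM) and Rbfox3 in 15 (0.13 CPM), while Snap25, Syp and Elavl4 had a median of 0. Of 6 hypothalamic neuropeptide and receptor genes, Lepr had reads in 15 libraries, Agrp in 7, Pomc and Npy in 1 each, and Cartpt and Mc4r in none, with no level above 1.66 CPM. Of 10 mesenchymal markers, 9 had reads in all 30 libraries, including Col1a1 (median 2016 CPM) and Pdgfrb (172 CPM). Vim, Acta2, Col1a2 and Col3a1 had medians of 2186, 2105, 1539 and 426 CPM. Medians were 35.3 CPM for Twist1, 30.2 CPM for Pdgfra, 14.9 CPM for Dcn and 0.90 CPM for Lum. Among astrocyte, oligodendrocyte, microglia and endothelial markers, only Cx3cr1 (13.3 CPM), Csf1r (10.6 CPM) and Slc1a3 (3.47 CPM) had reads in all 30 libraries. In such cultures, fewer cells of a type and less RNA per cell cannot be told apart. The labels do not say whether replicates came from separate cultures, so p-values measure only the spread between these libraries, which may be technical.

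After 6 h, every member had a higher mean across the 4 CBD doses than in vehicle, and only Mgp passed the test. The 10 members had positive log2 fold changes of 0.08 to 0.69, with a median of 0.35, whereas 46.5% of all 12012 genes tested lay above 0 and their median was -0.02. A gene was called at a false discovery rate (FDR, Benjamini-Hochberg over all genes tested) below 0.1 in edgeR's quasi-likelihood test. At this threshold 1 of 10 members was called, against 0.749% of all genes in either direction and 0.241% called higher. At an unadjusted p below 0.05 there were 7 members, against 10.3% of all genes. As the members were chosen with earlier results of these data known, these shares are a description and not a test of the group. Members also moved together within some libraries, so they are not 10 independent observations. Comparisons at 1 time point share the same 3 vehicle libraries, so the doses are not independent of each other.

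**Figure D1:**
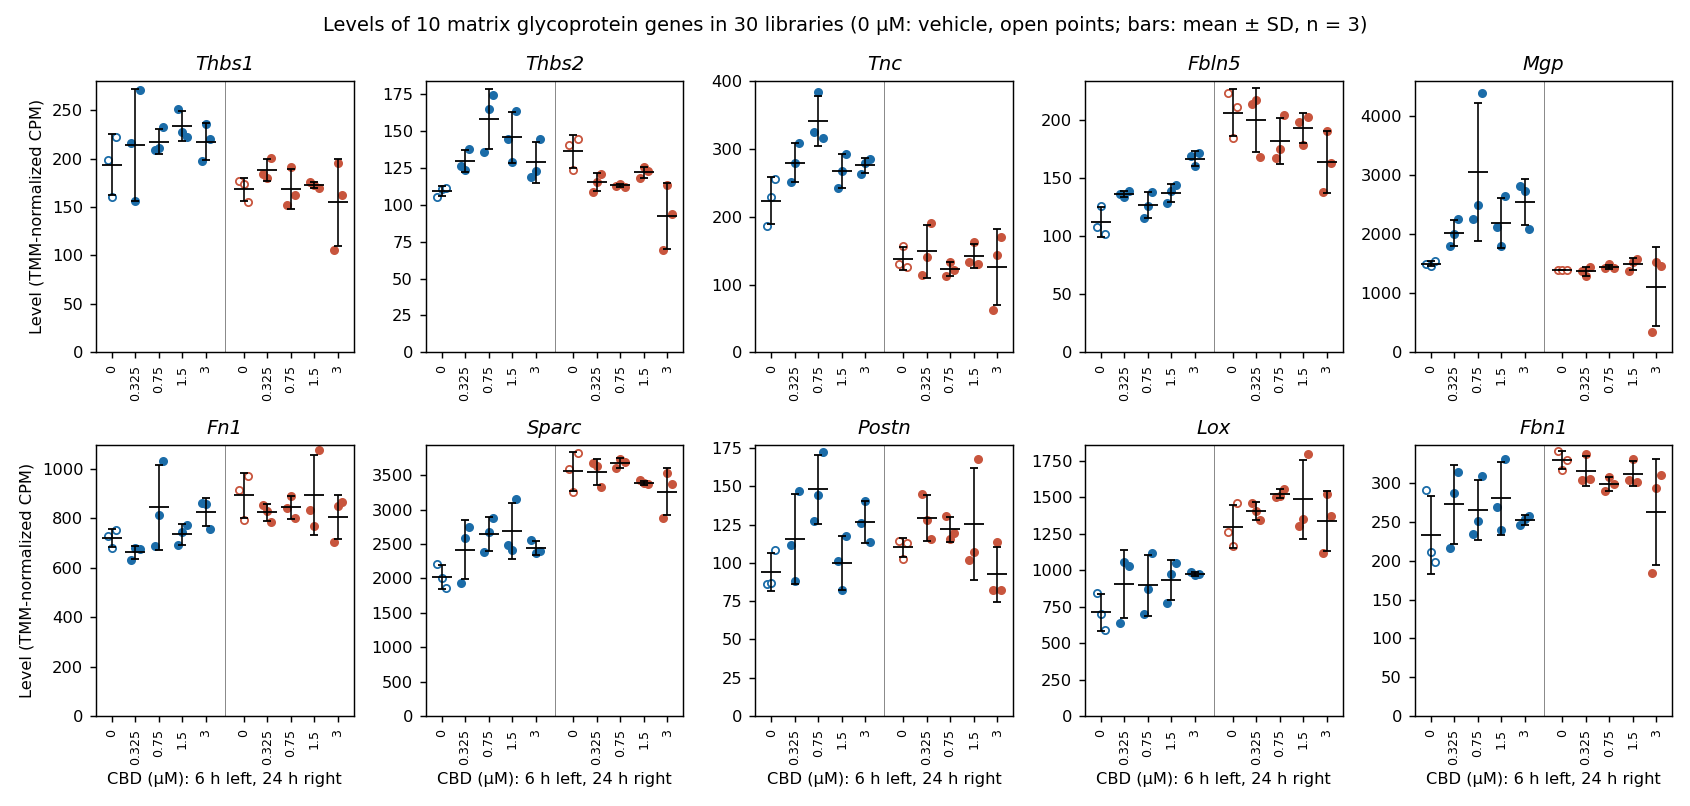
Level of each member in every library, as TMM-normalized CPM on a linear axis from 0, by CBD dose in µM at 6 h (blue, left) and 24 h (red, right). Open points are vehicle, filled points are CBD, and bars give the mean ± SD of 3 libraries. At 6 h all 12 treated libraries of Mgp and of Thbs2 lie above the 3 vehicle libraries.

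Mgp encodes matrix Gla protein, a vitamin K-dependent inhibitor of calcification. The gene lies at chr6:136872435-136875823 on the minus strand (GRCm38, as are the positions that follow). In 6 h vehicle its levels were 1499, 1456 and 1541 CPM. At 0.325 µM they were 1802, 2004 and 2245 CPM, and at 0.75 µM 2250.0, 2490.3 and 4382 CPM. All of these exceeded every vehicle library, and replicate 3 at 0.75 µM stood well above its group. At 1.5 µM the levels were 2119.9, 1789 and 2633 CPM, and at 3 µM 2810.0, 2724 and 2089 CPM. The 12 treated libraries therefore did not overlap vehicle, as was the case in that direction for 0.719% of all 12790 genes. The group means were 1499 ± 42.8 CPM in vehicle and, in rising order of dose, 2017 ± 222, 3041 ± 1168, 2181 ± 425 and 2541 ± 394 CPM (SD, n = 3). Over the 4 doses, Mgp rose 1.61-fold (log2 fold change 0.69, SE 0.15, 95% interval 0.37 to 1.003, edgeR FDR 0.0437). The call was lost when vehicle replicate 1 (log2 fold change 0.69, edgeR FDR 0.111) or replicate 2 (0.67, edgeR FDR 0.183) was left out.

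By single dose, Mgp was called at 0.75 µM only, where 1 of 10 members and 0.0749% of all genes passed, 0.0333% of all genes as higher. At an unadjusted p below 0.05 there were 5 members at that dose, against 7.79%. Its log2 fold change there was 1.02 (SE 0.19, edgeR FDR 0.0338). Without the high replicate 3 of that dose it was 0.66 with edgeR FDR 0.563, and without vehicle replicate 2 it was 0.999 with edgeR FDR 0.259. With only the vehicle and 0.75 µM libraries in the fit, the value was 1.02 with edgeR FDR 0.269. At 3 µM the log2 fold change of Mgp was 0.76 (SE 0.19, edgeR FDR 0.148). No member was called at 0.325 µM, 1.5 µM or 3 µM, where 0.2%, 0.0999% and 0.05% of all genes passed in edgeR. At an unadjusted p below 0.05, 3, 5 and 5 members passed at these doses, against 8.8%, 7.91% and 7.26% of all genes. DESeq2 called 2 members at 3 µM and none at the other 2 doses. It called 48 of all genes at 3 µM, against 6 in edgeR.

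Thbs2 encodes thrombospondin 2, an inhibitor of angiogenesis that binds the receptors CD36 and CD47, from chr17:14665500-14694235 on the minus strand. Its level in 6 h vehicle was 105, 111 and 111 CPM. With 0.325 µM CBD it was 126, 124 and 138 CPM, and with 0.75 µM 136, 165 and 174 CPM. The higher doses gave 145, 129 and 163 CPM (1.5 µM) and 119, 123 and 144 CPM (3 µM). All 12 lay above the highest vehicle library. The log2 fold change over the 4 doses was 0.36 (SE 0.12, edgeR FDR 0.23), which did not pass. The highest single value was 0.54 at 0.75 µM (SE 0.14, edgeR FDR 0.212).

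Thbs1, whose product releases TGF-beta from its latent complex, showed no separation. Vehicle libraries gave 199, 160.1 and 222 CPM, and treated libraries ran from 156 to 271 CPM with a median of 221 CPM. The log2 fold change was 0.18 (SE 0.13, edgeR FDR 0.7).

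Tnc encodes tenascin C, an adhesion-modulating hexamer abundant in remodelling tissue. Vehicle libraries gave 187, 229 and 255 CPM, and 10 of 12 treated libraries lay above all of them, with a range of 242 to 384 CPM. The log2 fold change was 0.37 (SE 0.11, edgeR FDR 0.196) over the 4 doses and 0.61 (SE 0.14, edgeR FDR 0.146) at 0.75 µM. Tnc was called without vehicle replicate 3, at a log2 fold change of 0.48 and edgeR FDR of 0.0519. In the other 14 fits that each left out 1 library it was not called, with edgeR FDR up to 0.514. The lowest log2 fold change was 0.26, without vehicle replicate 1.

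Sparc, for the collagen-binding osteonectin, measured 2207, 1999 and 1863 CPM in vehicle and 1927 to 3151 CPM in treated libraries, 11 of 12 of them above vehicle. Its log2 fold change was 0.33 (SE 0.11, edgeR FDR 0.248). Postn, for the integrin-binding periostin (chr3:54361109-54391037, plus strand), measured 86.2, 87.0 and 108 CPM in vehicle and 82.1 to 172 CPM in treated libraries, 9 of 12 above vehicle. Its log2 fold change was 0.36 (SE 0.15, edgeR FDR 0.371).

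Fbln5, for fibulin 5, which guides elastic fibre assembly, measured 108, 126 and 102 CPM in vehicle. At 3 µM it measured 169, 160.2 and 172 CPM, all above vehicle and above the 9 libraries of the lower doses, whose highest value was 144 CPM. The log2 fold change of Fbln5 was 0.58 at 3 µM (SE 0.13, edgeR FDR 0.11) and 0.34 over the 4 doses (SE 0.11, edgeR FDR 0.228). Lox, for lysyl oxidase, measured 844, 701 and 590.3 CPM in vehicle and 639 to 1117 CPM in treated libraries, with a log2 fold change of 0.38 (SE 0.15, edgeR FDR 0.326). Fbn1, for the microfibril core fibrillin 1, changed by 0.20 (SE 0.13, edgeR FDR 0.668). Fn1, for the integrin ligand fibronectin, changed by 0.08 (SE 0.11, edgeR FDR 0.857), and its 95% interval ran from -0.13 to 0.30.

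**Figure D2:**
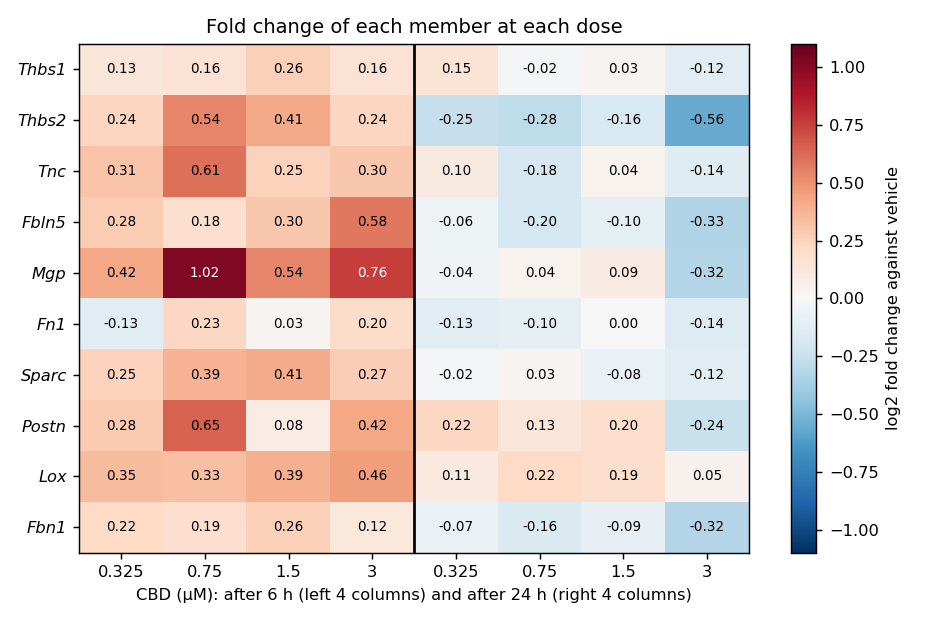
Log2 fold change of each member against vehicle of the same time, by CBD dose in µM, after 6 h (left 4 columns) and 24 h (right 4 columns). Colour runs from blue (lower) to red (higher), and the value is printed in each cell. The highest value is 1.02 for Mgp at 0.75 µM and 6 h, and the lowest is -0.56 for Thbs2 at 3 µM and 24 h.

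Members were also counted by whether their 3 libraries of a dose all exceeded the 3 vehicle libraries at 6 h. There were 3 such members with 0.325 µM (5.72% of all genes), 5 with 0.75 µM (6.64%), 4 with 1.5 µM (6.05%) and 8 with 3 µM (6.77%). By mean level the members lay between percentile 86.6 (Postn) and 99.8 (Sparc) of all genes. By spread within groups they lay between percentile 5.2 (Sparc) and 67.9 (Mgp). The shares are over genes of every level, and genes of like level and spread were not counted. Thbs1 and Fbn1 were the members that overlapped vehicle at 3 µM. No member differed among the 4 doses at 6 h in edgeR (background 0%), although 4 (Mgp, Postn, Fbln5 and Fn1) had an unadjusted p below 0.05 against 3.76% of all genes, and DESeq2 also called none. In edgeR 0 members differed between 3 µM and the 3 lower doses (background 0%), and DESeq2 called none. Fbln5 had an unadjusted p below 0.05 there, 1 of 10 members against 5.19% of all genes, with a log2 difference of 0.33 (edgeR FDR 0.905).

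The summed level of the 10 mesenchymal markers was 8538 to 9025 CPM in 6 h vehicle, 9685 to 9980 CPM at 3 µM and 7830 to 9845 CPM at the other doses. Lum, a mesenchymal marker, had reads in 24 of 30 libraries. The share of mapped reads outside genes was 17.9% to 21.4% in 6 h vehicle and 17.7% to 21.1% in treated libraries. With that share as a covariate, 6 members were called over the 4 doses at 6 h: Mgp, Thbs2, Tnc, Fbln5, Sparc and Lox, with edgeR FDR from 0.0302 to 0.0931 for the 5 added to Mgp. The number of all genes called rose as well, from 90 to 329. The part of the mesenchymal markers in the result was not tested.

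After 24 h, no member was called in any comparison of CBD with vehicle in edgeR. Over the 4 doses, 3 members had positive and 7 negative log2 fold changes, from -0.31 to 0.14 with a median of -0.05, and 48.6% of all genes were positive. In edgeR 0 of 10 members passed, against 0.107% of all genes. At an unadjusted p below 0.05 there was 1 member, Thbs2, against 6.73% of all genes, and DESeq2 called none. For the single doses in rising order, the share of all genes called was 0.066%, 0.0825%, 0.0413% and 0.00825%. Unadjusted, 0, 1, 0 and 3 members had a p below 0.05, against 8.33%, 7.63%, 7.34% and 9.16% of all genes. DESeq2 called 1 member at 3 µM and none at the lower doses. It called 13 of all genes at 3 µM, against 1 in edgeR.

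**Figure D3:**
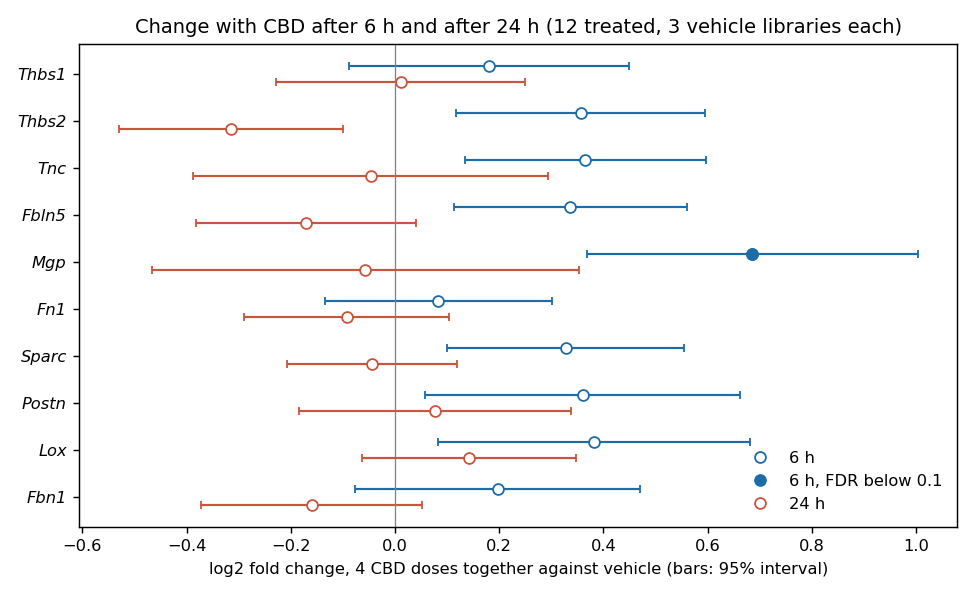
Log2 fold change of the 4 CBD doses together against vehicle for each member after 6 h (blue) and 24 h (red), with 95% intervals from edgeR. Filled points have an FDR below 0.1. At 6 h all 10 points lie above 0 and Mgp, at 0.69, is the filled one; at 24 h Thbs2, at -0.31, has an interval entirely below 0.

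For Thbs2 at 24 h, vehicle libraries gave 140.5, 124 and 144 CPM. With 0.325 µM CBD the level was 108.8, 116 and 121 CPM, and with 0.75 µM 113, 114 and 112 CPM. The higher doses gave 118, 125 and 123 CPM (1.5 µM) and 69.1, 114 and 93.8 CPM (3 µM). Of the 12 treated libraries, 11 lay below the lowest vehicle library. The share of all genes that reach 11 was not counted. The stricter rule of all 12, which Thbs2 did not meet in this scaling over 30 libraries, held for 0.258% of all genes. The exception, replicate 2 of 1.5 µM, measured 125.4 CPM against 123.7 CPM in vehicle replicate 2, and with scaling over the 24 h libraries alone it fell below, at 125.7 against 125.9 CPM. The log2 fold change of Thbs2 was -0.31 over the 4 doses (SE 0.10, edgeR FDR 0.509) and -0.56 at 3 µM (SE 0.14, edgeR FDR 0.325). Members whose 3 libraries of a dose all lay above vehicle at 24 h numbered 2, 3, 0 and 0 in rising order of dose, against 6.89%, 8.27%, 6.77% and 4.86% of all genes. Those all below numbered 1, 2, 0 and 2, against 6.15%, 6.5%, 6.15% and 5.51%.

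Mgp, the member called at 6 h, did not pass at 24 h. Vehicle libraries gave 1392, 1387 and 1397 CPM, and 11 of the 12 treated libraries lay between 1290.3 and 1573 CPM. Replicate 1 of 3 µM measured 349.7 CPM. The log2 fold change was -0.06 over the 4 doses (SE 0.20, edgeR FDR 0.987), with an interval from -0.47 to 0.35. Without replicate 1 of 3 µM it was 0.05 with edgeR FDR 0.911.

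Fbn1 and Fbln5, both of the elastic fibre, were also mostly at or below vehicle at 24 h without passing the test. Fbn1 measured 342, 318 and 330.2 CPM in vehicle and 184 to 338 CPM in treated libraries, 10 of 12 of them below the lowest vehicle library (log2 fold change -0.16, SE 0.10, edgeR FDR 0.866). Fbln5 measured 224, 185 and 211 CPM in vehicle and 138 to 217 CPM in treated libraries, 6 of 12 of them below vehicle (-0.17, SE 0.10, edgeR FDR 0.838).

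The remaining members, like those above, overlapped vehicle at 24 h in the scaling over all 30 libraries. Lox ran from 1117 to 1802 CPM in treated libraries against 1170 to 1460 CPM in vehicle, with the highest log2 fold change of the members, 0.14 (SE 0.10, edgeR FDR 0.883). Sparc ran from 2872 to 3736 CPM against 3255 to 3825 CPM (-0.04), and Fn1 from 705 to 1077 CPM against 795 to 973 CPM (-0.09). Tnc ran from 62.7 to 191 CPM against 126 to 157 CPM (-0.05), Postn from 82.0 to 168 CPM against 103 to 114 CPM (0.08), and Thbs1 from 106 to 201 CPM against 155 to 177 CPM (0.01). Each of these 6 had an edgeR FDR of 0.883 or higher.

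The 3 µM library that was low for Mgp, replicate 1 at 24 h, was below its group mean for all 10 members. Its deviation on the log2 scale was -1.39 for Mgp and ran from -0.87 (Tnc) to -0.15 (Postn) for the others, with a median of -0.32 over the members. Replicate 2 of the same group was above the mean for all 10. At 6 h, replicate 3 at 0.75 µM was above its group mean for 9 members, most for Mgp at 0.59, and replicate 1 at that dose was below for all 10.

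**Figure D4:**
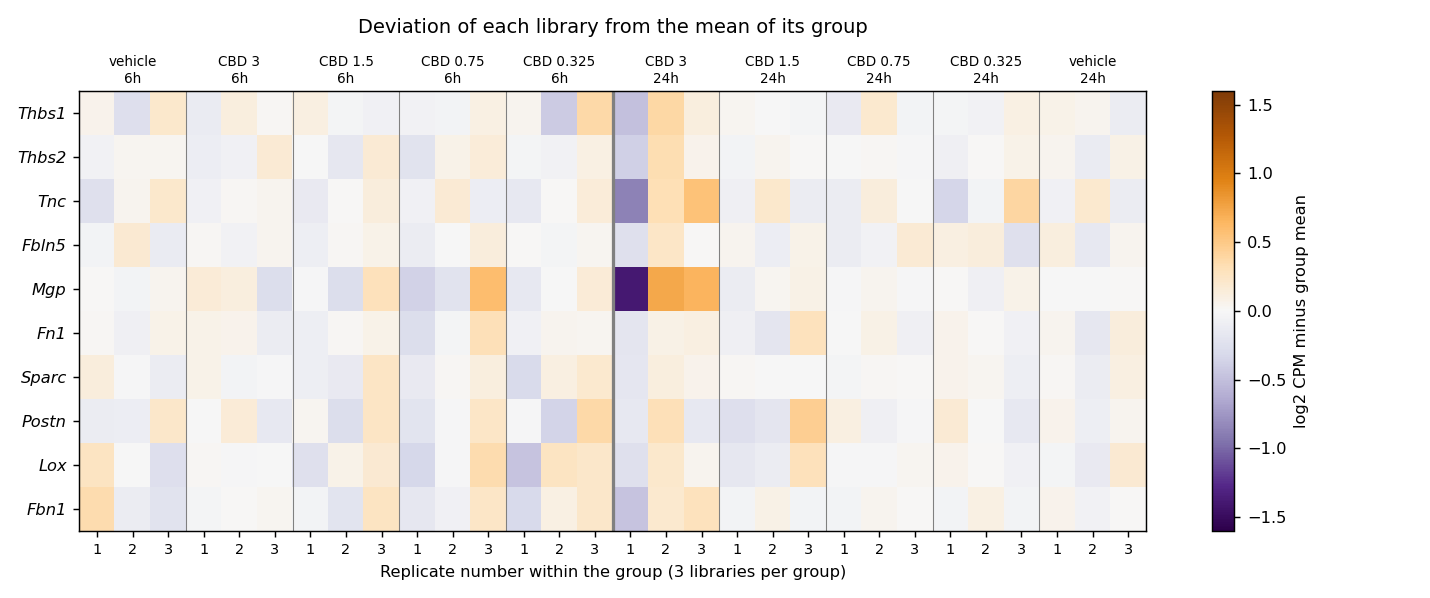
Difference between the log2 CPM of each library and the mean of its group, for each member (rows) and library (columns, 3 replicates per group). Orange is above and purple below the group mean. Replicate 1 of 3 µM at 24 h is purple in all 10 rows, down to -1.39 for Mgp.

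The 3 µM dose was compared with the 3 lower doses at 24 h. All 10 members were lower at 3 µM, by a median log2 difference of -0.19, and 50.6% of all genes were higher. Called lower were 2 of 10 members, Postn and Thbs2, against 10.5% of all genes called in either direction and 4.16% called lower. The same 2 had an unadjusted p below 0.05, against 21.6% of all genes. Postn measured 82.1, 113 and 82.0 CPM at 3 µM and 102 to 168 CPM at the lower doses, with overlap. Postn fell by 0.43 on the log2 scale (SE 0.14, edgeR FDR 0.061) and Thbs2 fell by 0.32 (SE 0.12, edgeR FDR 0.0944).

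Both calls depended on single libraries. No member was called without replicate 1 or replicate 3 of 3 µM or without replicate 1 of 0.325 µM, and 5 were called without replicate 2 of 3 µM. All genes called moved too, from 1275 to 68 without replicate 1 of 3 µM and to 2303 without its replicate 2. Without replicate 1 of 3 µM, Postn was at -0.36 (edgeR FDR 0.32) and Thbs2 at -0.16 (edgeR FDR 0.613). Without replicate 3 of 3 µM they were at -0.36 (edgeR FDR 0.243) and -0.35 (edgeR FDR 0.198), and without replicate 1 of 0.325 µM at -0.40 (edgeR FDR 0.101) and -0.34 (edgeR FDR 0.109). The Thbs2 call was also lost, with Postn kept, without any 1 of the other 8 libraries of the lower doses (edgeR FDR of Thbs2 0.105 to 0.133), and with no filter on low counts (-0.34, edgeR FDR 0.11). The share of mapped reads outside genes was 20.8% to 21.7% at 3 µM, 18.7% to 20.4% at the lower doses and 20.9% to 22.2% in vehicle. With that share as a covariate, 0 members were called, at -0.43 for Postn (edgeR FDR 0.545) and -0.57 for Thbs2 (edgeR FDR 0.299). The number of all genes called fell as well, from 1275 to 30. The summed mesenchymal markers were 7677 to 8077 CPM at 3 µM and 7843 to 8839 CPM at the lower doses, and their part in the result was not tested. A test for any difference among the 4 doses at 24 h called 0 members in edgeR (background 1.93%), with 1 member at an unadjusted p below 0.05 against 14.5% of all genes, and DESeq2 called none.

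The 250 bases before the transcription starts of Postn and Thbs2 are shown because these are the members called in a comparison between CBD doses, read from RefSeq on build GRCm38.p6. The Thbs2 window is chr17:14694263-14694512 on the minus strand and the Postn window chr3:54360857-54361106 on the plus strand. Both are printed 5′ to 3′ on the gene's strand, with capitals marking matches to the motifs searched on both strands.
Thbs2: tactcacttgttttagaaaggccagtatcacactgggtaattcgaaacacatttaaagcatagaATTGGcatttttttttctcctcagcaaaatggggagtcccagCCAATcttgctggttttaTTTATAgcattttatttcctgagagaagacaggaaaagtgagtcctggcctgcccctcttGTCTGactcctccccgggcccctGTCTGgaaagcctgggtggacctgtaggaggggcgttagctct
Postn: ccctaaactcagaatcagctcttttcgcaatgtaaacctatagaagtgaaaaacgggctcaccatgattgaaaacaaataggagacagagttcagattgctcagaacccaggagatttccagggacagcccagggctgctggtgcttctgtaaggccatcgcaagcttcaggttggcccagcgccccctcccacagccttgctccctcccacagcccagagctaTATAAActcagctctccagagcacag

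The motifs searched were the TATA box (TATAAA), the CCAAT box (CCAAT), the AP-1 site (TGANTCA), the TEAD site (GGAATG), the GC box (GGGCGG) and the SMAD element (GTCTG). They do not share letters here. The Postn window held a TATA box 26 bases before the start. The Thbs2 window held TATAAA on the opposite strand 126 bases before the start, CCAAT matches 144 and 186 bases before, and GTCTG 43 and 66 bases before. Windows were found for 6 of 10 members, Thbs2, Tnc, Fbln5, Sparc, Postn and Fbn1, 9 windows in all, of which the pair for Tnc overlap. TATAAA was in 4 of 9 (12.4% of all 32851 windows), GTCTG in 5 (42.2%), GGGCGG in 4 (32.7%), CCAAT in 2 (33.8%) and the other two in none (6.75% and 12.6%). A match is a description of the letters and not a bound site.

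Between 6 h and 24 h in vehicle alone, 6 of 10 members changed, against 26.7% of all 12790 genes. Called higher were 5, against 12.5% of all genes, and called lower was 1, against 14.2%. At an unadjusted p below 0.05 there were 7 members against 33% of all genes, and 7 had positive log2 fold changes against 48.1%. The members of the elastic fibre and cross-linking machinery were higher at 24 h. Fbln5 rose from 112 ± 12.9 to 207 ± 19.9 CPM (SD, n = 3; log2 fold change 0.89, SE 0.13, edgeR FDR 1.23e-05) and Lox from 712 ± 127 to 1298 ± 148 CPM (0.87, SE 0.16, edgeR FDR 0.000275). Fbn1 rose by 0.50 on the log2 scale (SE 0.16, edgeR FDR 0.02). The vehicle libraries of the time points overlapped for Thbs1 and Postn only. The share of all genes that separated in this way was not counted, so this is no result about the members. Mgp (edgeR FDR 0.812) and Thbs2 (edgeR FDR 0.101) separated without being called.

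Sparc rose from 2023 ± 173 to 3557 ± 286 CPM (log2 fold change 0.81, SE 0.12, edgeR FDR 1.08e-05) and Fn1 from 720 ± 36.8 to 894 ± 91.0 CPM (0.31, SE 0.13, edgeR FDR 0.0795). Tnc fell from 224 ± 34.6 to 138 ± 17.02 CPM (-0.70, SE 0.20, edgeR FDR 0.00966). Thbs2 (0.32, edgeR FDR 0.101), Postn (0.22), Mgp (-0.11) and Thbs1 (-0.21) did not pass. Fbn1 was not called without vehicle replicate 3 of 6 h (0.41, edgeR FDR 0.107), nor Fn1 without vehicle replicates 1 or 2 of 6 h or 1 or 3 of 24 h (0.26 to 0.33, edgeR FDR 0.11 to 0.236). The Fn1 call was also lost with the share of reads outside genes in the model (0.31, edgeR FDR 0.109) and with only the 2 vehicle groups in the fit (0.33, edgeR FDR 0.143). Time in culture and time in DMSO cannot be told apart here.

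**Figure D5:**
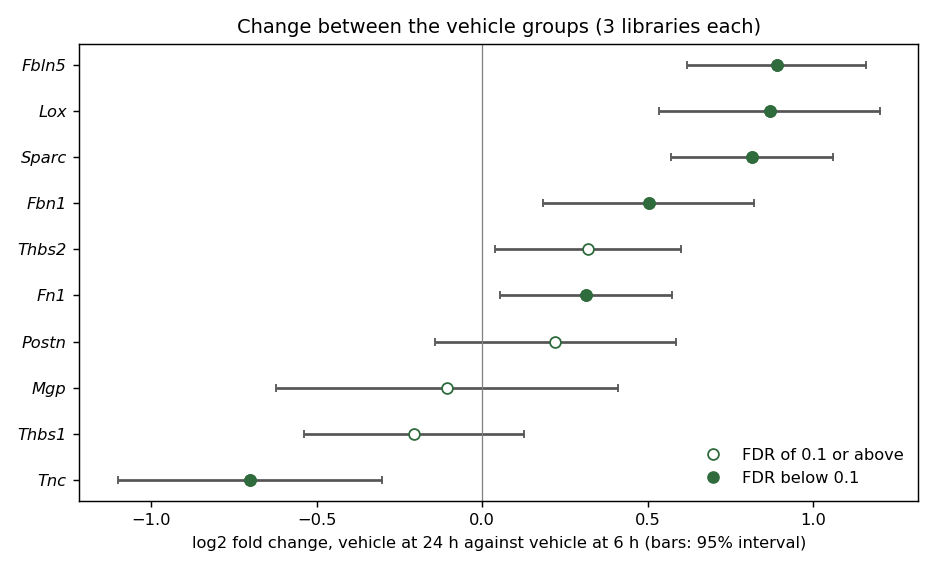
Log2 fold change of each member between the vehicle groups, 24 h against 6 h (3 libraries each), with 95% intervals from edgeR, in order of size. Filled points have an FDR below 0.1: 5 members lie above 0, up to 0.89 for Fbln5, and Tnc lies below at -0.70.

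The response to CBD at 24 h was set against the response at 6 h as an interaction over all 30 libraries. All 10 members had a lower response at 24 h, with a median difference of -0.36 against 0.02 over all genes, of which 52.3% were higher. In edgeR 1 of 10 passed, Thbs2, against 0.235% of all genes in either direction and 0.109% lower, and 4 members had an unadjusted p below 0.05 against 6.52% of all genes. The difference for Thbs2 was -0.67 (SE 0.16, 95% interval -0.98 to -0.35, edgeR FDR 0.0656), from 0.36 at 6 h to -0.31 at 24 h. The Mgp difference was -0.74 (SE 0.29, edgeR FDR 0.559) and that of Fbln5 was -0.50 (SE 0.15, edgeR FDR 0.273). The Thbs2 call held in 16 of 30 fits that each left out 1 library. It was lost, at -0.73 to -0.62 and edgeR FDR 0.1 to 0.246, without any 1 vehicle library of either time, any 1 library of 3 µM at 6 h, replicate 2 of 0.75 µM at 6 h, or at 24 h replicate 3 of 1.5 µM, replicates 1 or 3 of 0.75 µM or replicate 1 of 0.325 µM.

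Genes that work with the members were taken from 4 lists. Over the 4 doses at 6 h, 46.5% of all genes had positive log2 fold changes and 0.749% were called in either direction. Of 14 elastic fibre and microfibril genes tested, 12 were positive, with a median of 0.23, and 6 had an unadjusted p below 0.05. In this list 1 was called: Emilin1, which anchors elastic fibres to cells, rose by 0.79 (SE 0.20, edgeR FDR 0.0762). Of 18 related matricellular and adhesive genes, 11 were positive and 3 had an unadjusted p below 0.05. Again 1 was called: Ccn2, a connective tissue growth factor, fell by 0.87 on the log2 scale (SE 0.21, edgeR FDR 0.0699). None of 13 receptors and binding partners (median 0.12) or 19 modifying enzymes (median 0.14) was called in edgeR, with 1 and 4 at an unadjusted p below 0.05 against 10.3% of all genes.

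At 24 h, none of the 4 lists had a gene called over the 4 doses in edgeR, with 1 receptor, 2 elastic fibre, 3 matricellular and 2 enzyme genes at an unadjusted p below 0.05 against 6.73% of all genes. Between 3 µM and the lower doses, the receptors Itgb1 (-0.42, edgeR FDR 0.0448), Itgb5 (-0.38, edgeR FDR 0.0512) and Sdc1 (-0.51, edgeR FDR 0.0686) were lower, 3 of 13 tested, against 4.16% of all genes called lower and 10.5% called in either direction. Among 18 modifying enzymes, the protease Adamts1 was lower (-0.68, edgeR FDR 0.0111) and the proprotein convertase Furin higher (0.59, edgeR FDR 0.00608). No elastic fibre or related matricellular gene was called there in edgeR, with 4 and 1 at an unadjusted p below 0.05 against 21.6% of all genes.

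In vehicle over time, 12.5% of all genes were called higher and 14.2% lower. Of 15 elastic fibre genes 8 rose, among them the microfibril gene Mfap5 (log2 fold change 0.98, edgeR FDR 2.48e-05), and 1 fell, Fbn2 (-1.64, edgeR FDR 0.0369). Of 19 matricellular genes 8 rose, among them Thbs3 (0.84, edgeR FDR 0.0221), and 1 fell, Ccn2 (-1.53, edgeR FDR 0.000809). Of 19 enzymes 7 rose, among them the protease Adamts1 (1.993, edgeR FDR 3.43e-08) and the cross-linking Loxl1 (0.72, edgeR FDR 0.00106), and 1 fell, Furin (-0.47, edgeR FDR 0.0471). Of 13 receptors 3 rose and 2 fell. The median log2 fold changes of these lists were 0.79, 0.29, 0.25 and 0.10 in that order.

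Over the 10 group means, the genes with the pattern most like that of Mgp were Plxna1 (Pearson r 0.944), Pla2g4a (0.942) and Dctd (0.939). Among the members, the means of Tnc (0.905), Thbs1 (0.895) and Thbs2 (0.847) were closest to Mgp, while Lox and Sparc were closest to each other (0.964) and opposite in sign to Mgp (-0.58 and -0.53). These are descriptions over 10 points that share time and vehicle libraries.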

How the data were processed

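Total RNA of the cells was made into QuantSeq 3′ mRNA-Seq FWD libraries. Per the submitters' notes and methods, the authors checked reads with FastQC 0.11.9, trimmed them, aligned them to the mouse GRCm39 assembly with STAR 2.7.5c and counted them per Ensembl gene with HTSeq 1.99.2; the strand setting of the counting is not given in the sources used here. The deposited values are raw counts per gene, 1 table per library. Rows that name no gene (17.7% to 22.2% of mapped reads outside genes, 4.74% to 5.08% ambiguous) were left out.

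Symbols came from GENCODE annotation on GRCm38, which named 51948 of 56941 genes. The gene bodies of Thbs1, Tnc, Fn1, Lox and Fbn1 overlap a gene on the other strand. Whether their exons overlap, and whether this altered their counts, was not tested. Counts were filtered (filterByExpr), TMM-scaled and fitted in edgeR 4.0.16 (R 4.3.3) with 1 mean per group: 15 libraries per time for dose comparisons and 30 for time comparisons. The quasi-likelihood test with Benjamini-Hochberg adjustment over all genes used the study's FDR threshold of 0.1. Any gene of the 4 lists called in a dose comparison was named. Alternatives were DESeq2 1.42.0, RLE scaling, other filters, mitochondrial genes left out, a covariate, fewer groups and each library left out. The fit was tested on simulated data. Every pair of replicates differed by more than sampling noise, so none was merged. The chi-square of their counts per degree of freedom ran from 2.175 to 12.01. It was highest between vehicle replicates 1 and 3 at 6 h, and was 10.82 between replicates 2 and 3. Without vehicle replicate 3, all genes called over the 4 doses at 6 h rose from 90 to 304. The members and lists were chosen with earlier results of these data known.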

Additional observations from a re-analysis of the deposited data

Results flagged for a closer look

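In the main fit, the response of Thbs2 to CBD differed between the exposure times. Its log2 fold change over the 4 doses was 0.36 at 6 h and -0.31 at 24 h, a difference of -0.67 (SE 0.16) that passed the interaction test (edgeR FDR 0.0656). At 6 h, 12 of 12 treated libraries were above vehicle, as was the case for 0.719% of all genes. At 24 h, 11 of 12 were below, and the share of all genes that reach 11 was not counted. Neither single time passed in edgeR (FDR 0.23 and 0.509). Over 6 alternative settings the difference ranged from -0.70 to -0.64 and the FDR from 0.0171 to 0.107. The call held in 16 of 30 fits that each left out 1 library. It was lost without any 1 vehicle library of either time, with edgeR FDR 0.1 to 0.246 over all fits that lost it. Thbs2 in 24 h vehicle was 0.32 higher on the log2 scale than in 6 h vehicle (edgeR FDR 0.101), so the levels that CBD was compared with also differed. Groups of 3 libraries are too small for a test of single outlying libraries.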

How the results depend on the processing

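No paired analysis was possible because replicate numbers only follow library order and tie no libraries together across groups. With DESeq2, the members called were 3 at 0.75 µM and 2 at 3 µM at 6 h, and 1 at 3 µM at 24 h. All genes called there were 48, 48 and 13, against 9, 6 and 1 in the main edgeR fit. Keeping every detected gene gave, at 6 h, 1 at 0.325 µM, 3 at 0.75 µM, 1 at 1.5 µM, 2 at 3 µM, 3 over the 4 doses and 1 for any difference among doses. At 24 h it gave 1 at 3 µM and 1 for any difference, with 2 for the interaction. All genes called at 6 h rose with it from 24 to 151, 9 to 101, 12 to 106 and 6 to 92 in rising order of dose. For any difference at 6 h they rose from 0 to 15. At 24 h they rose from 1 to 116 at 3 µM and from 234 to 783 for any difference, and for the interaction from 30 to 87. Adding the percentage of reads that fell outside genes to the model gave, at 6 h, 4 at 0.75 µM, 1 at 1.5 µM, 3 at 3 µM and 6 over the 4 doses. It gave 0 for 3 µM against the lower doses at 24 h and 0 for the interaction. All genes called at 6 h rose with it from 9 to 119 at 0.75 µM, 12 to 154 at 1.5 µM and 6 to 79 at 3 µM. For the interaction they went from 30 to 25. With only the compared groups, 0 were called at 0.75 µM and 1 at 3 µM at 6 h, where all genes called were 2 and 3. That setting is the same fit for the 4 doses together and the interaction. Under the covariate the 24 h log2 fold changes over the 4 doses reversed for Tnc (0.18), Mgp (0.32), Fn1 (0.067) and Sparc (0.075), none of them called.

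With each library left out in turn, members called ranged at 6 h from 0 to 3 at 0.75 µM, 0 to 2 at 3 µM and 0 to 2 over the 4 doses. At 24 h they ranged from 0 to 1 at 3 µM, 0 to 2 for any difference and 0 to 5 for 3 µM against the lower doses. For the interaction the range was 0 to 1. All genes called ranged at 6 h from 1 to 173 at 0.75 µM, 0 to 135 at 3 µM and 51 to 304 over the 4 doses. At 24 h the ranges were 1 to 288 at 3 µM, 9 to 1085 for any difference and 68 to 2303 for 3 µM against the lower doses. The 24 h log2 fold changes over the 4 doses crossed 0 for Thbs1 (-0.041 to 0.065), Tnc (-0.11 to 0.059), Mgp (-0.13 to 0.051) and Sparc (-0.10 to 0.015). The cause was not tested. All 10 positive directions at 6 h held under the 6 settings and 15 left-out libraries. Counts over all genes also moved: over the 4 doses at 6 h, 90 became 263 with every detected gene and 329 with the covariate, and for 3 µM against the lower doses at 24 h 1275 became 30 with the covariate. The least covered member in any library had 155 reads, and whether depth limited any call was not tested.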
